A study of Mus musculus with 8 samples.

Results

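The replication-dependent histone genes encode the bulk histones that package newly copied DNA. They were chosen by gene symbol alone: symbols that start with H2ac, H2bc, H3c or H4c and a digit, and the numbered H1f genes of the same clusters. The rule found 54 genes, each with 1 probe set on the array, among 19505 genes with a symbol. They comprised 5 H1, 13 H2A, 15 H2B, 10 H3 and 11 H4 genes, of which 46 lie on chromosome 13 and 8 on chromosome 3, in the 2 large histone clusters of the mouse. H4c3 is also named in the rule for a difference between groups, so its values chose it and are given as a description. The symbols of the other members say nothing of their values, although the group was proposed with earlier results of these data known.

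Histones H2A, H2B, H3 and H4 form the core of the nucleosome, and H1 is the linker histone that binds the DNA between nucleosomes. Most transcription of these genes falls in S phase, when NPAT activates their promoters. Their mRNAs have no poly(A) tail and end instead in a stem-loop that is bound by SLBP, which carries them through processing and translation. Most neurons of the adult brain no longer divide and take up replacement histones such as H3.3, encoded by H3f3a and H3f3b. Some clustered genes are nevertheless transcribed outside S phase, and a few of them then give polyadenylated mRNA.

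RNA came from the limbic system of male ICR mice, an outbred strain, and a description field names the hippocampus. The mice were 8 weeks old when bought and were treated for 7 days, after 1 week of acclimatization. In the order used below, the groups were high-dose rosemary extract (RE) with the tail suspension test (TST), low-dose RE with TST, water with TST and water without TST. In the TST a mouse is suspended by the tail, and its time without movement is scored. RE was given by mouth in the drinking water. Mice on the low dose received 10 mg/kg. For the high dose the titles give 100 mg/kg, whereas the source names give 50 mg/kg. Each group had 2 RNA samples, each on its own Clariom S array, a whole-transcript microarray whose targets are primed at random and so do not depend on a poly(A) tail. The labels assign 7 mice to a group but do not say whether an RNA sample was 1 mouse or a pool, so p-values measure the spread between these samples, which may be technical. Groups follow the titles; a further field has "Positive Control" for water without TST and "Negative control" for water with TST.

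The deposited log2 values ran from 2.76 to 19.79 over all 22206 probe sets, and from 3.12 to 14.31 over the members. Array medians were 7.45 to 7.51. Water with TST replicate 2 stood apart: its correlation with the other 7 arrays was 0.967 to 0.978, against 0.983 to 0.993 among those 7. Cerebellar granule cell markers were high on that array and on water without TST replicate 1. Gabra6, a receptor subunit of these cells, had 7.64 and 5.14 in high-dose RE, 5.48 and 4.69 in low-dose RE, 5.40 and 16.37 in water with TST, and 14.31 and 8.42 in water without TST. The mean deviation of 11 measured cerebellar markers was −1.249 to −0.849 on the 4 RE arrays, against −1.141 and 3.941 in water with TST and 2.267 and −0.52 in water without TST. The 8 measured markers of forebrain excitatory neurons averaged 0.204 to 0.607 on the RE arrays, against 0.7 and −2.226 in water with TST and −0.05 and −0.229 in water without TST. Thus all 4 RE arrays lay above 3 of the 4 water arrays in forebrain markers, and the highest cerebellar values were both from water groups. The part of this in the histone results was not tested. Where leaving out those arrays ends a member's call in the 4 comparisons, the value without them is given. For listed genes outside the members it is given for some only. The calls of Cenpf, Neu4, Lsm11 and Neurod2, for example, also end when 1 or both of those arrays are left out. In bulk tissue, fewer cells of a type and less RNA per cell cannot be told apart.

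Sequences before the start sites are shown for 6 of the members whose values differ most between groups or that lie side by side in the chromosome 3 cluster. They are RefSeq sequences of build GRCm38.p6, 250 bases up to the start site, read 5′ to 3′ on the gene's own strand. RefSeq windows matched 49 of the 54 members; H2bc21, H2bc4, H3c1, H3c7 and H4c14 had no match. Capitals mark matches, on either strand, to the TATA box letters TATAAA, the CCAAT box letters CCAAT and the histone octamer ATTTGCAT, an element known from H2B promoters. The H2ac20 and H4c3 windows, with H3c15, lie on the minus strand, and the other 3 on the plus strand.
H4c3, chr13:23698459-23698708: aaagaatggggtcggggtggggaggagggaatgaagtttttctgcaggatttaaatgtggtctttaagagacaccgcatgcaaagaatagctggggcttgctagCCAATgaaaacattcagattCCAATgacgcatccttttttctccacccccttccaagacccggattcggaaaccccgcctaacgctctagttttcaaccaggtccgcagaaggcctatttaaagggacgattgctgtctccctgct
H1f2, chr13:23738557-23738806: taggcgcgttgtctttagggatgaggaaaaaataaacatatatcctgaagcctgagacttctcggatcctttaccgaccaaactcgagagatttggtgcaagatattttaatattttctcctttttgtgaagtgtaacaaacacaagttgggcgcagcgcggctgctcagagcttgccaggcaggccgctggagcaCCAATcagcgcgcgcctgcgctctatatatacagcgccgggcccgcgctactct
H2ac20, chr3:96220881-96221130: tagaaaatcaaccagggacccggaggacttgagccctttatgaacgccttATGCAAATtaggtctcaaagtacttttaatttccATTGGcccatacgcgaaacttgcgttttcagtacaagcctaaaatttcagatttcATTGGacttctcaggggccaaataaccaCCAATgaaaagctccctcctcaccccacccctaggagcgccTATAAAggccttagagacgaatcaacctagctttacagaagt
H2ac21, chr3:96219635-96219884: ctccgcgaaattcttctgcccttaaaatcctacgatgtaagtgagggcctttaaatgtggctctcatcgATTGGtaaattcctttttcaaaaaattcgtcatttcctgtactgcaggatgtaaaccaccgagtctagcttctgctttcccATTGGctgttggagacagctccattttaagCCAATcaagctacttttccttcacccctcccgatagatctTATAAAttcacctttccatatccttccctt
H3c14, chr3:96246435-96246684: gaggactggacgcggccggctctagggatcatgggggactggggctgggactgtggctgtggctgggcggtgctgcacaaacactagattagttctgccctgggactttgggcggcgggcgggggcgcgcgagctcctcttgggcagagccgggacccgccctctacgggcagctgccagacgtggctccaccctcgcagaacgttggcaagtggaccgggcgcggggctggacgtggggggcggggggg
H3c15, chr3:96239128-96239377: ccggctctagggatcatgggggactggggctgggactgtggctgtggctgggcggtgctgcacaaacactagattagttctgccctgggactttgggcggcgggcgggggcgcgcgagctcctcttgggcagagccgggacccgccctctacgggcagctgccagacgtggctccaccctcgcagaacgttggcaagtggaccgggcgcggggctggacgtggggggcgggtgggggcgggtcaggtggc

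These windows differed in kind. H2ac20 held 1 TATAAA, 3 CCAAT and 1 octamer match, and H2ac21 held 1 TATAAA and 3 CCAAT matches. H4c3 had 2 CCAAT matches, H1f2 had 1, and neither had TATAAA. The windows of H3c14 and H3c15 had no match to any of the 3 motifs and a GC content of 71.2%, against 42.4% to 50.4% in the other 4. Their 300-base RefSeq windows, which run 50 bases past the start site, share an unbroken run of 231 identical bases, offset by 15 bases. Over the 49 members with a window, TATAAA occurred in 24 (49.0%), against 12.4% of all 32851 promoter windows in the same reference. CCAAT occurred in 40 members (81.6%), against 33.8% of all windows. The octamer occurred in 12 members (24.5%), against 1.6% of all windows. Of those 12, 6 were among 13 H2A windows and 6 among 13 H2B windows, and 0 H1, H3 or H4 windows held it. A match describes these letters only.

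Genes of 1 core histone family are near-copies of one another, and H3c14 and H3c15 had identical values on all 8 arrays. They are therefore 1 measurement for 2 genes. How far the probe sets of the other members share signal was not tested. Probes differ in brightness, so mean signal is used below only to pick which members are named and gives no order of expression.

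**Figure D1:**
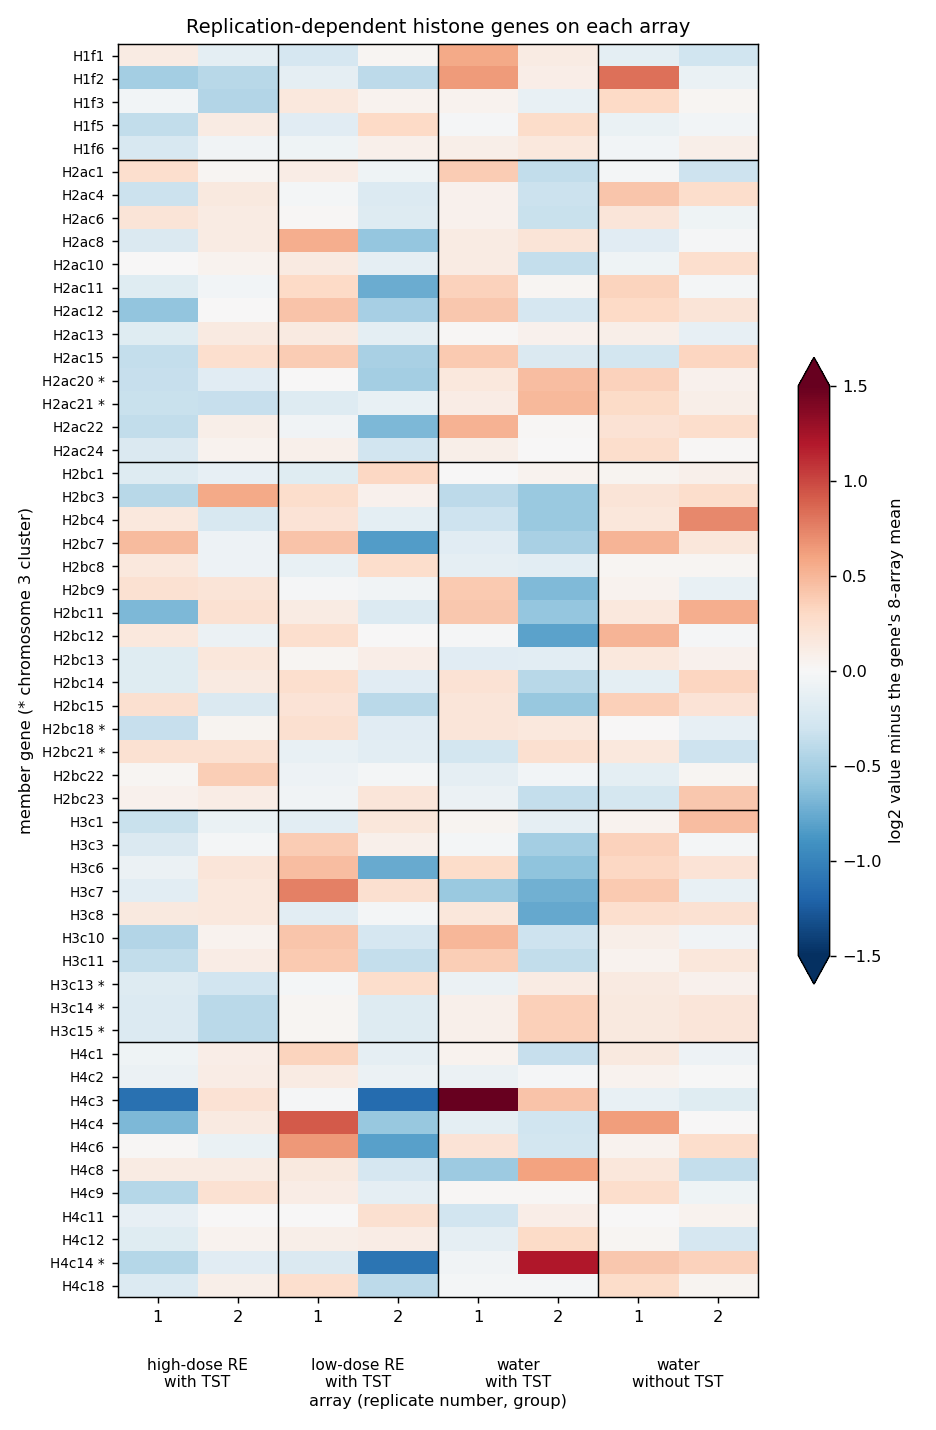
Each row is 1 of the 54 histone genes, grouped by family, and each column is 1 of the 8 arrays; colour gives the log2 value minus the gene's mean over the 8 arrays. H4c3 and H4c14 have the widest ranges, 3.10 and 2.29, and 19 of the 54 rows span more than 1 log2 unit.

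Most members differed little between arrays. The range of a gene over the 8 arrays was 0.21 to 3.10 log2 units with a median of 0.78, against a median of 0.88 over all probe sets. It exceeded 1 in 19 of 54 members (35.2%), against 37.9% of all probe sets. Between the 2 replicates of a group, the median absolute difference of the members was 0.255 in high-dose RE, 0.33 in low-dose RE, 0.385 in water with TST and 0.2 in water without TST. Over all probe sets it was 0.22, 0.33, 0.37 and 0.25 in the same groups. Replicates nevertheless shifted in 1 direction: low-dose RE replicate 1 lay above replicate 2 in 40 of 54 members (74.1%), against 50.1% of all probe sets, with a median difference of 0.26. In high-dose RE, replicate 2 lay above replicate 1 in 38 of 54, against 10770 of all 22206 probe sets. The median of replicate 1 minus replicate 2 was −0.185 there, against 0.01 over all probe sets. In water with TST the clusters shifted in opposite directions. Replicate 1 lay above replicate 2 in 34 of 46 chromosome 13 genes, and replicate 2 above replicate 1 in 7 of 8 chromosome 3 genes. Over all probe sets, replicate 1 of that group lay higher in 44.8%. The low-dose shift was found in 12 of 13 H2A and 9 of 11 H4 genes. Differences between replicates of this size are comparable to the H2B family medians given below.

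The threshold stated by the study combines a fold change above 1.2 (a log2 difference of 0.263) and p under 0.05 before adjustment. With it, in limma, 6 of the 54 members changed in at least 1 of the 4 comparisons and 48 changed in none. In water with TST against water without TST, 2 members passed (3.7%), against 2.55% of all probe sets. In low-dose RE against water with TST, 3 passed (5.56%), against 3.54% of all probe sets. In high-dose RE against water with TST, 3 passed (5.56%), against 3.17%. In high-dose against low-dose RE, 0 of 54 passed, against 1.91%. With so few members, these shares are near the background. After Benjamini-Hochberg adjustment over all 22206 probe sets, 0 members and 0 probe sets passed in limma in any of these comparisons, and the lowest adjusted p of a member was 0.997, 0.946, 0.973 and 1 in that order. The moderated F-test over the 4 groups gave 0 members after adjustment. Before adjustment it gave 1 member under 0.05, H3c7, against 1.82% of all probe sets.

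H4c3, a core histone H4 gene of the chromosome 13 cluster, had the widest range of all members. Its log2 values were 8.69 and 10.02 in high-dose RE, 9.79 and 8.65 in low-dose RE, 11.75 and 10.23 in water with TST, and 9.69 and 9.63 in water without TST. Both water with TST arrays were above the other 6, replicate 2 by little. The means were 9.36 ± 0.94, 9.22 ± 0.81, 10.99 ± 1.07 and 9.66 ± 0.042 in that order (SD, n = 2 each), so replicates differed by more than 1 log2 unit in 3 of the groups. Because H4c3 was chosen for this pattern, its differences are a description: −1.635 (SE 0.606) for high-dose RE and −1.77 (SE 0.606) for low-dose RE, each minus water with TST. It is 1 of the 3 members counted above for each RE dose. The 2 RE effects share the same water arrays. Water with TST minus water without TST was 1.33 (SE 0.606), outside the study's threshold. High-dose minus low-dose RE was 0.135, and its sign turned without replicate 2 of either RE group. Without water with TST replicate 1 the high-dose and low-dose effects were −0.875 and −1.01, and the threshold was no longer met. It was also lost for the high dose without high-dose RE replicate 1 (−0.97) and for the low dose without low-dose RE replicate 2 (−1.2). Without water with TST replicate 2, without either high-dose RE array, or without the 2 arrays highest in cerebellar markers, the TST difference passed, at 2.09, 1.33 and 2.12.

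**Figure D2:**
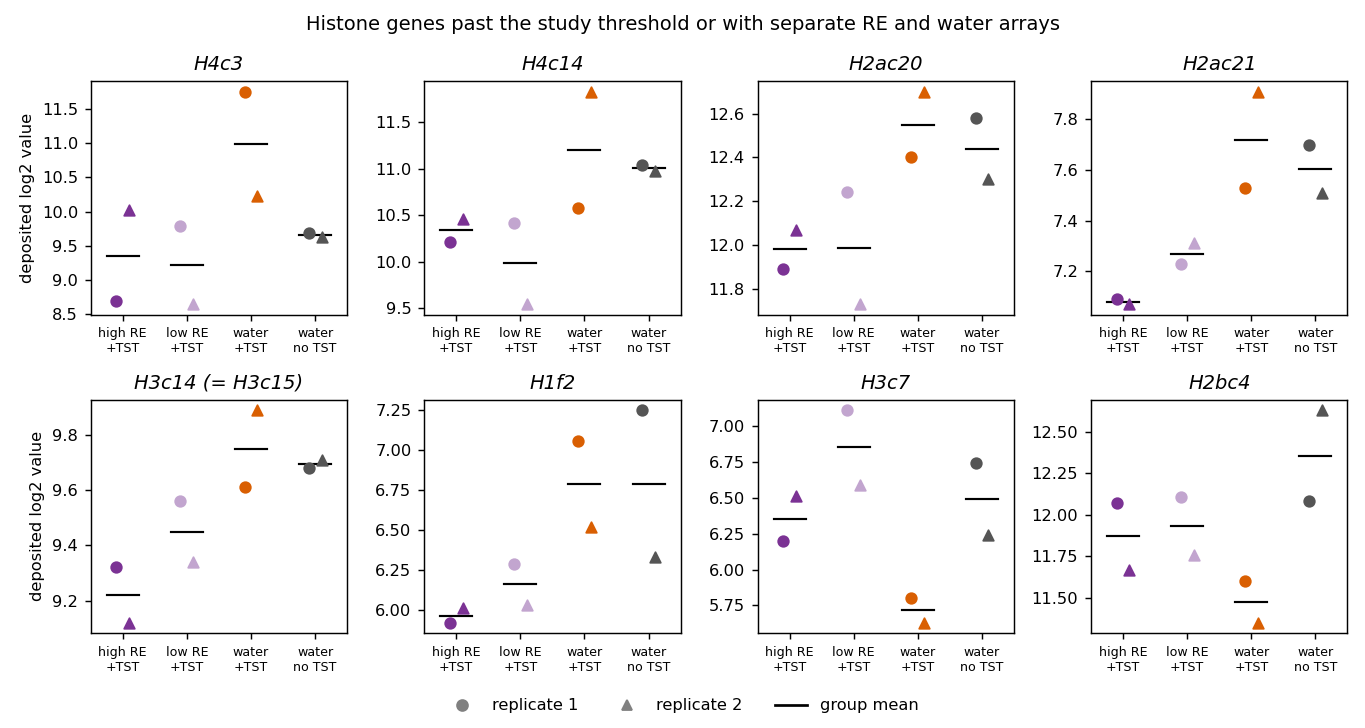
Log2 values of members that passed the study's threshold or lie in the chromosome 3 pattern, 1 point per array, with groups from left to right high-dose RE, low-dose RE, water with TST and water without TST and a bar at each group mean. H4c3 reaches 11.75 in water with TST, and for H4c14, H2ac20 and H2ac21 all RE points lie below all water points.

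Among the H4 genes, H4c14 of the chromosome 3 cluster was lower in low-dose RE than in water with TST. It had 10.21 and 10.46 in high-dose RE and 10.42 and 9.54 in low-dose RE, against 10.58 and 11.83 in water with TST and 11.04 and 10.98 in water without TST. Low-dose RE minus water with TST was −1.225 (SE 0.434, adjusted p = 0.946 in limma). High-dose RE minus water with TST was −0.87 and missed the threshold. The low-dose value no longer passed without water with TST replicate 2, the array highest in cerebellar markers (−0.6), or without low-dose RE replicate 2 (−0.785). It also did not pass at −1.225 in a fit of only the groups compared or in the one-way analysis of variance, nor at −0.6 in the 6-array fit. It was −1.85 without water with TST replicate 1, which left replicate 2, at 11.83, as the only water with TST array. The other 9 H4 genes passed in none of the 4 comparisons. The 3 with the highest mean probe signal, H4c11, H4c1 and H4c18, ranged over 0.53, 0.68 and 0.67 log2 units. H4c2 had the narrowest range of all members, 0.21, between 11.60 and 11.81.

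In the H3 family, H3c7 on chromosome 13 was the member with the smallest p in any comparison. It had 6.20 and 6.51 in high-dose RE, 7.11 and 6.59 in low-dose RE, 5.80 and 5.63 in water with TST, and 6.74 and 6.24 in water without TST. Both water with TST arrays were below all other arrays. Low-dose RE minus water with TST was 1.135 (SE 0.287, adjusted p = 0.946 in limma), and it passed the study's threshold in all 8 fits that left out 1 array. Water with TST minus water without TST was −0.775 (SE 0.287), and high-dose RE minus water with TST was 0.64, which missed the threshold. The one-way analysis of variance, on only the 4 arrays compared, ended both the low-dose and the TST call. The TST difference also no longer passed without water without TST replicate 1 (−0.525), without water with TST replicate 2 (−0.69), or without the 2 arrays highest in cerebellar markers (−0.44). H3c6, the next widest in range, lay between 8.25 in low-dose RE replicate 2 and 9.46 in low-dose RE replicate 1, so its extremes were replicates of 1 group. H3c13, the H3 gene with the highest mean signal, stayed between 9.61 and 10.16.

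In the H2B family, H2bc4 fell in water with TST relative to water without TST. It had 12.07 and 11.67 in high-dose RE, 12.11 and 11.76 in low-dose RE, 11.60 and 11.35 in water with TST, and 12.08 and 12.63 in water without TST, and both water with TST arrays were below the other 6. The TST difference was −0.88 (SE 0.287, adjusted p = 0.997 in limma), and both RE groups lay above water with TST by 0.395 (high dose) and 0.46 (low dose), neither past the threshold. The TST difference no longer passed without water without TST replicate 2 (−0.605) or water with TST replicate 2 (−0.755), or in the one-way analysis of variance. No other H2B gene passed, though most had the same sign. In water with TST minus water without TST, 13 of 15 H2B genes were below 0, with a median of −0.275 against 0.005 over all probe sets. For 7 of 15 both water with TST arrays were below both water without TST arrays, as for 13.3% of all probe sets. Against the same water with TST arrays, 12 of 15 were above 0 for high-dose RE (median 0.245) and 13 of 15 for low-dose RE (median 0.125). Water with TST replicate 2 had the lowest H2B level, a median deviation of −0.42, against −0.0925 on replicate 1. Without replicate 2 the TST median was −0.165 with 11 of 15 below 0, and 9 of 15 were above 0 for each RE dose. H2bc7 and H2bc12 had the widest ranges, 1.35 and 1.31, with the lowest values 6.51 in low-dose RE replicate 2 and 5.37 in water with TST replicate 2. H2bc22 and H2bc18 ranged over only 0.52 and 0.59.

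The H2A family had 1 gene past the threshold in the 4 comparisons. H2ac21 had 7.09 and 7.07 in high-dose RE and 7.23 and 7.31 in low-dose RE, against 7.53 and 7.91 in water with TST and 7.70 and 7.51 in water without TST. High-dose RE minus water with TST was −0.64 (SE 0.234, adjusted p = 0.973 in limma). All 4 RE values lay below all 4 water values, and the groups did not overlap. The low-dose difference was −0.45 and missed the threshold. The high-dose difference no longer passed without water with TST replicate 2 (also −0.45), or without high-dose RE replicate 1 (−0.65) or 2 (−0.63), nor in the 6-array fit (−0.45) or the one-way analysis of variance. H2ac22 and H2ac11, of the chromosome 13 cluster, are among the H2A genes with the highest mean signal. H2ac22 had 11.39 and 11.85 in high-dose RE and 11.71 and 11.09 in low-dose RE, against 12.29 and 11.78 in water with TST and 11.98 and 12.03 in water without TST, with overlapping arrays. H2ac11 and H2ac8 were lowest on low-dose RE replicate 2, at 10.61 and 6.68, and H2ac8 was highest on low-dose RE replicate 1, at 7.81.

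Of the 5 linker histone genes, H1f2 passed for high-dose RE. It had 5.92 and 6.01 in high-dose RE and 6.29 and 6.03 in low-dose RE, against 7.06 and 6.52 in water with TST and 7.25 and 6.33 in water without TST. All RE values were below all water values, the closest pair being 6.29 and 6.33. High-dose RE minus water with TST was −0.825 (SE 0.342, adjusted p = 0.973 in limma), and the threshold was lost in 5 of 8 fits that left out 1 array: water with TST replicate 1 (−0.555) or any of the 4 RE arrays (−0.87 to −0.78). It was also lost with quantile normalization (−0.83) and in the one-way analysis of variance. H1f1 had 7.37 and 7.11 in high-dose RE, 7.0 and 7.28 in low-dose RE, 7.82 and 7.38 in water with TST, and 7.10 and 6.95 in water without TST. Its TST difference of 0.575 was opposite in sign to the H2B median and missed the threshold. H1f3 lay between 6.17 and 6.90. The testis-type H1f6 stayed between 3.73 and 4.12 on all arrays.

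The member medians were near 0 in each comparison. High-dose RE minus water with TST had a median of −0.0525 over the 54 members, against 0.01 over all probe sets. Low-dose RE minus water with TST had 0.0225, against 0.015. High-dose minus low-dose RE had −0.05, against −0.005, and water with TST minus water without TST had −0.1, against 0.005. The pooled SD of the member median between replicate arrays was 0.147, larger than each of these. The high-dose, low-dose and dose medians each changed sign when 1 array was left out.

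Of the 8 chromosome 3 genes, 7 had a lower mean over both RE groups than over both water groups, and 1 had a higher mean. For this, after the values had been seen, the mean of both RE groups was set against the mean of both water groups in the same limma fit. Both RE groups had TST but 1 of the water groups did not, so RE and TST are not balanced in it. The chromosome 3 median was −0.3875, the chromosome 13 median −0.06 and the median of all probe sets 0.0125. In this comparison 5 of 8 chromosome 3 genes fell past the study's threshold, as did 3 of 46 chromosome 13 genes, with 1 of the 46 higher. The chromosome 13 genes were H1f2 (−0.73), H2ac22 (−0.51) and H4c3 (−1.04), which fell, and H3c7 (0.5), which rose, and they lost the threshold in 2, 5, 5 and 4 of 8 fits without 1 array. Over all probe sets 4.1% passed in either direction and 1.84% fell. For the same 5 genes, H4c14, H2ac20, H2ac21, H3c14 and H3c15, every RE array lay below every water array, as for 1 of 46 chromosome 13 genes, H1f2, and 1.48% of all probe sets. Because H3c14 and H3c15 are 1 measurement, the 5 genes are 4 distinct probe readings. No member had every RE array above every water array, against 1.8% of all probe sets. After adjustment over all probe sets, 0 members passed in limma, with a lowest adjusted p of 0.95, while 9 of 54 were under 0.05 before adjustment. The difference between the clusters was not tested.

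H2ac20, an H2A gene and the one with the highest mean signal of its family, had 11.89 and 12.07 in high-dose RE and 12.24 and 11.73 in low-dose RE, against 12.40 and 12.70 in water with TST and 12.58 and 12.30 in water without TST. The RE mean minus the water mean was −0.51 (SE 0.189). H3c14, with its identical partner H3c15, had 9.32 and 9.12 in high-dose RE and 9.56 and 9.34 in low-dose RE, against 9.61 and 9.89 in water with TST and 9.68 and 9.71 in water without TST. The groups did not overlap, although the highest RE and the lowest water value were as close as 9.56 and 9.61. Its RE minus water difference was −0.39 (SE 0.164). H4c14 had −0.95 (SE 0.307) and H2ac21 −0.49 (SE 0.166). These genes thus were lower by 0.39 to 0.95 log2 units in the RE groups. H2ac21 and H3c14 had a Pearson r of 0.904 over the 8 arrays, against a median of 0.232 over member pairs on the same chromosome. It is a description only, since both genes were picked here for RE arrays below all water arrays, which raises r.

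The other 3 genes of the cluster did not pass, and their RE and water arrays overlapped. H2bc21, which encodes an H2B, had 7.59 and 7.60 in high-dose RE and 7.26 and 7.21 in low-dose RE, against 7.09 and 7.61 in water with TST and 7.52 and 7.05 in water without TST, a difference of 0.0975. H3c13 had 9.70 and 9.61 in high-dose RE and 9.86 and 10.16 in low-dose RE, against 9.81 and 10.01 in water with TST and 10.03 and 9.96 in water without TST, a difference of −0.12. H2bc18 had 8.04 and 8.43 in high-dose RE and 8.63 and 8.22 in low-dose RE, against 8.57 and 8.55 in water with TST and 8.39 and 8.26 in water without TST, a difference of −0.1125. In gene order the 5 genes past the threshold were interrupted by H2bc21, and H3c13 and H2bc18 lie at the far end. Of the 20 nearest other genes on the array, 10 on each side of the cluster, 0 passed, against 4.1% of all probe sets. In 0 of them did all RE arrays lie on 1 side, against 1.48% below and 1.8% above over all probe sets. With only 20 genes, both counts are near the background. The median difference of these 20 genes was −0.0062 (range −0.3375 to 0.3).

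**Figure D3:**
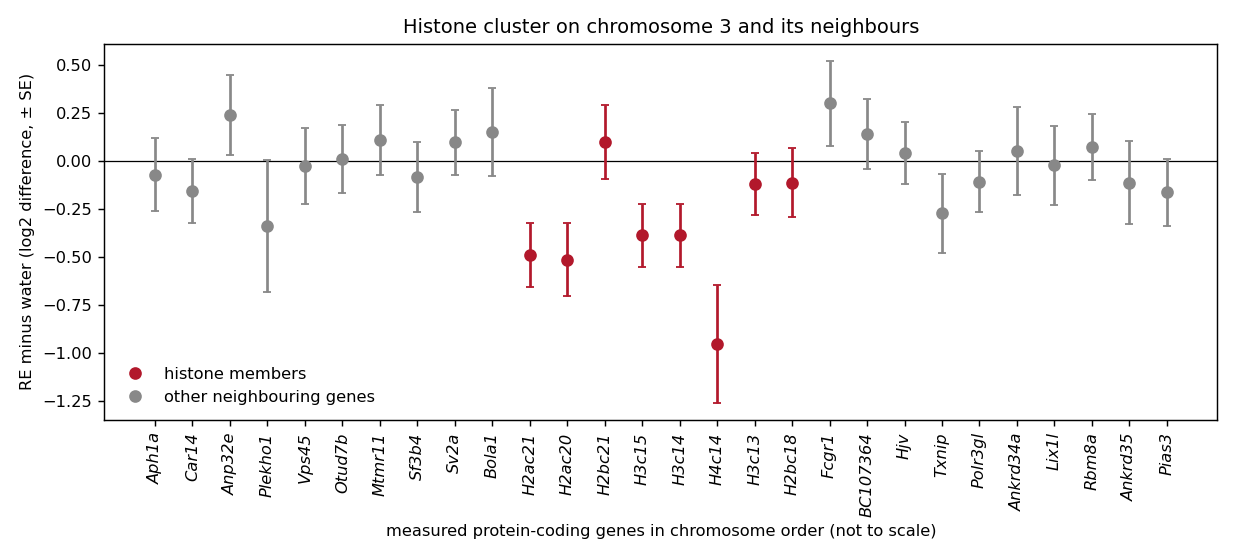
RE mean minus water mean on the log2 scale, with standard errors, for the 8 chromosome 3 histone genes in gene order between their 20 neighbours. The values of H4c14, H2ac20, H2ac21, H3c14 and H3c15 lie between −0.95 and −0.3875, while the neighbours lie between −0.3375 and 0.3.

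The chromosome 3 result depends on single arrays. Without the 2 arrays highest in cerebellar markers, an alternative added after the data were seen, the chromosome 3 median was −0.325, 0 of 8 genes passed the threshold, and the same 5 genes kept all RE arrays below the remaining 2 water arrays, as did 1425 of all probe sets; leaving arrays out cannot undo this separation. Their values were then −0.6225 for H4c14, −0.3675 for H2ac20, −0.345 for H2ac21 and −0.325 for H3c14. In the fits without 1 array the count past the threshold was 1 without water without TST replicate 1 or low-dose RE replicate 2, 2 without water with TST replicate 2 or either high-dose RE array, 3 without water without TST replicate 2, and 5 otherwise. The median in these fits ran from −0.4575 to −0.3175. The array medians of the 8 genes were −0.2688 and −0.2275 in high-dose RE and −0.0156 and −0.1775 in low-dose RE, against 0.0812 and 0.3613 in water with TST and 0.1525 and 0.0794 in water without TST. The highest was on the array highest in cerebellar markers. In the same RE against water comparison, 11 of 11 measured cerebellar markers were below 0 and 3 of them fell past the threshold, while 8 of 8 forebrain markers were above 0 with 0 past it. The 46 chromosome 13 genes had −0.1806 and 0.0938 in high-dose RE and 0.1263 and −0.14 in low-dose RE, against 0.0594 and −0.2369 in water with TST and 0.15 and 0.0275 in water without TST, with no separation of the groups.

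**Figure D4:**
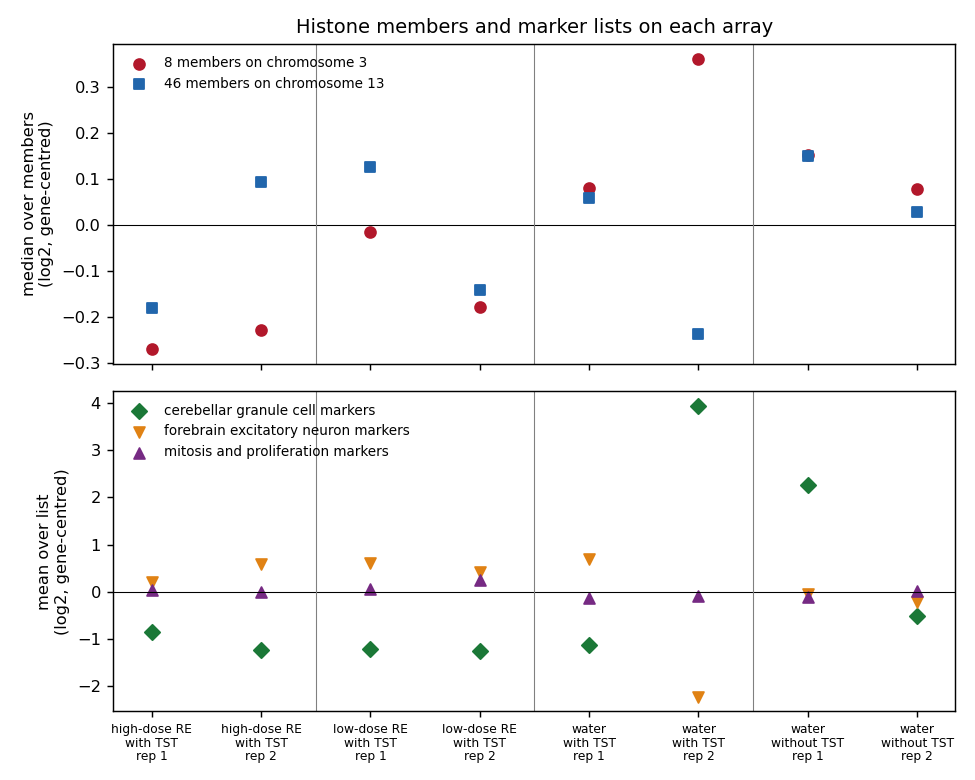
Per-array median deviation of the chromosome 3 and chromosome 13 members, with the mean deviation of cerebellar, forebrain and mitosis markers, on the log2 scale for the 8 arrays. Chromosome 3 medians are all below 0 on RE arrays and all above 0 on water arrays, and cerebellar markers reach 3.941 and 2.267 on 2 water arrays.

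In each list of genes that act on these mRNAs and proteins, or encode other histones, at most 1 gene passed the threshold in any of the 4 comparisons. The shares of all probe sets were 2.55% for TST, 3.54% for low-dose RE, 3.17% for high-dose RE and 1.91% between the doses. Counts this small cannot be told from these shares. Of 17 measured histone mRNA processing genes, 0 passed for TST and either RE dose, and 1 passed between the doses, Lsm11, a part of the U7 particle that processes histone mRNA ends, at −0.705. It was lost in 4 of 8 fits without 1 array, at −0.375 without low-dose RE replicate 1. Slbp had 10.81 and 10.66 in high-dose RE, 10.63 and 10.04 in low-dose RE, 10.62 and 10.87 in water with TST, and 10.30 and 10.66 in water without TST, with overlapping arrays. Of 18 measured histone chaperones, Asf1a passed for both RE doses. Asf1a carries H3 and H4 dimers to the factors that deposit them on DNA. It had 8.95 and 8.76 in high-dose RE and 8.93 and 8.64 in low-dose RE, against 9.24 and 9.72 in water with TST and 9.29 and 9.17 in water without TST. High-dose RE minus water with TST was −0.625 and low-dose −0.695, which share their control arrays. All 4 RE values lay below all 4 water values. Without water with TST replicate 2 the differences were −0.385 and −0.455 and neither passed, and over the 8 fits without 1 array the call was lost in 5 for the high dose and in 2 for the low dose. Of 14 measured replication-independent histones, 1 passed: H3f3b, which encodes the replacement histone H3.3, had 13.26 and 13.27 in high-dose RE, 14.05 and 13.37 in low-dose RE, 13.62 and 15.12 in water with TST, and 14.18 and 13.68 in water without TST. High-dose RE minus water with TST was −1.105. Without water with TST replicate 2, the highest value, it was −0.355 and did not pass, and the call was lost in 7 of 8 fits without 1 array.

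In each list of DNA replication, cell division and cell type genes, at most 1 gene passed in any of the 4 comparisons. Over all probe sets 2.55% passed for TST, 3.54% for low-dose RE, 3.17% for high-dose RE and 1.91% between the doses. With lists this short, the counts cannot be told from these shares. Of 26 measured DNA replication genes, Mcm4, a helicase subunit, passed as lower in low-dose RE at −0.71, and Gins1, a further replisome subunit, as higher in high-dose RE at 0.815 and in high-dose over low-dose RE at 0.79. Without water with TST replicate 2 the Mcm4 difference was −0.435 and the Gins1 high-dose difference 0.62, and neither passed. Of 14 mitosis and proliferation markers, Ccna2 fell by 0.855 in water with TST relative to water without TST, and Cenpf rose by 0.575 in low-dose RE relative to water with TST, each lost in 2 of 8 fits without 1 array. Without water with TST replicate 2 the Ccna2 difference was −0.425 and did not pass. Mki67 had 5.29 and 5.24 in high-dose RE, 5.59 and 5.51 in low-dose RE, 5.69 and 5.38 in water with TST, and 5.26 and 6.0 in water without TST, and the groups overlapped. The mean deviation of the mitosis list was −0.003 to 0.242 on the RE arrays, against −0.13 to 0.009 on the water arrays. Of its 14 markers, 12 were above 0 for low-dose RE (median 0.2775) and 9 for high-dose RE (0.065), each minus water with TST. With both RE groups against both water groups, 10 were above 0, 4 were below 0 and 2 passed as higher. Those 2 calls, outside the 4 comparisons, were not followed through the fits without 1 array. Of 10 measured neural progenitor and neuroblast markers, Eomes passed as lower in high-dose RE at −1.84, with 7.66 in water with TST replicate 2 against 4.14 to 5.12 on the other 7 arrays. Without that replicate it was −0.35 and did not pass. Of the 10 markers 8 were above 0 for high-dose RE, with a median of 0.43, so Eomes went against most of its list. Of 6 oligodendrocyte precursor markers, Neu4 passed as higher in low-dose RE at 0.615, a call lost in 7 of 8 fits without 1 array. Microglia (9 measured) and choroid plexus markers (7 measured) had 0 past the threshold in the 4 comparisons, as had endothelial (8 measured) and cerebellar markers. These counts do not mean equal levels. All 11 cerebellar markers were below 0 for high-dose RE (median −2.31) and for low-dose RE (−2.39), each minus water with TST. Of 7 choroid plexus markers, 7 were above 0 for low-dose RE (median 1.24) and 6 were below 0 for TST (−0.94). Of 9 microglia markers 6 were below 0 for TST (−0.39). Of the 8 forebrain markers 6 were lower in water with TST than in water without TST, with a median of −0.9. The 1 that passed, Neurod2, went the other way, at 1.23, or 0.415 and not past without water without TST replicate 2. Of only 2 measured erythrocyte markers, Alas2 passed as higher in high-dose than in low-dose RE, at 0.58, a call lost in 3 of 8 fits without 1 array. After adjustment over all probe sets in limma, 0 genes of these lists passed.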

How the data were processed

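Per the labels' protocols and the submitters' design text, RNA was labelled with a random-primed whole-transcript kit, and the authors normalized the Clariom S scans by RMA with Transcriptome Analysis Console 4.0.1. Their deposited log2 values, 1 column per array, were used unchanged. No depth or detection call comes with them, so the number of arrays limits the precision. Over all arrays 1359 values are above 16, more than a scanner of 16 bits can give; no member's value is among them. Of 22206 probe sets, 19572 had 1 gene symbol and 2634 were unnamed here.

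Group means of all 8 arrays were fitted with limma 3.58.1 in R 4.3.3 (lmFit, eBayes), leaving 4 residual degrees of freedom beside a prior of 4.3. P-values were two-sided and adjusted by Benjamini-Hochberg over every probe set. Exact permutation of 2 against 2 arrays cannot go below 0.333 and was not used. Set levels per array are deviations from each gene's mean over the 8 arrays. The fit was tested on simulated data.

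Members and gene lists were chosen with earlier results of these data known. Both RE groups were set against both water groups only after the values were seen. Named members were H4c3, those past the study's threshold and, per family, the 3 highest in mean signal and the 2 widest in range; of listed genes, those past the threshold, with Gabra6, Mki67 and Slbp. H2bc21, H4c2, H1f6 and the 20 neighbours were added after their values were seen. Alternatives were the replicate number as a block, separate fits per comparison, a trended robust prior, dropping the dimmest 25% of probe sets, quantile normalization, averaging a gene's probe sets, the plain analysis of variance named in the design text, leaving out each array, and a 6-array fit added after the data were seen. The titles do not say whether equal replicate numbers pair the samples, and the main fit did not pair them. Replicate differences correlated between groups at −0.293 to 0.169 over all probe sets, which cannot settle the question.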

Additional observations from a re-analysis of the deposited data

How the results depend on the processing

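With 2 arrays per group, single arrays moved the counts. Leaving out each array in turn gave 1 to 6 members past the study's threshold for TST (2 with all arrays), 2 to 8 for low-dose RE (3), 1 to 7 for high-dose RE (3) and 0 to 2 for the dose comparison (0). The fit of only the groups compared gave 4 for TST, leaving out the dimmest 25% of probe sets gave 5 for high-dose RE, and the one-way analysis of variance gave 1 for low-dose RE, 0 for high-dose RE and 1 for the dose comparison. Without each array in turn, the member median ran from −0.13 to 0.1525 for low-dose RE, from −0.2025 to 0.0975 for high-dose RE and from −0.2 to 0.1175 for the dose comparison. In the 6-array fit, chosen after seeing the data, the low-dose median was −0.1275. The TST median stayed between −0.235 and −0.0625 in the fits without 1 array. For H4c3 the fits without 1 array ran from 0.57 to 2.09 for TST, from −2.53 to −1.01 for low-dose RE and from −2.395 to −0.875 for high-dose RE. Its TST difference passed the threshold at 1.33 in the fit of only the groups compared and at 2.12 in the 6-array fit. Its high-dose difference of −1.635 no longer passed in the fit of only the groups compared or in the analysis of variance, nor did its low-dose difference of −1.77 in the analysis of variance. Its dose difference ran from −0.53 to 0.8 and was −0.435 without low-dose RE replicate 2 and −0.53 without high-dose RE replicate 2. The count of chromosome 3 genes past the threshold in RE minus water ran from 1 to 5 without 1 array, was 0 in the 6-array fit and was 3 with the replicate number as a block. The block changed no other count by over 1.5 times. Averaging a gene's probe sets could change no member, since each has 1. The trended and robust prior and quantile normalization moved no count by over 1.5 times and no median by over the replicate spread; the causes of the changes above were not tested. A group left with 1 array is assumed to have the spread of the others. The one-way analysis of variance ended the call of each of the 6 members past the threshold. The 13 calls of listed genes outside the members were followed through the fits without 1 array, an alternative added after seeing the data, and each was lost in 2 or more of the 8.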
